A study of Mus musculus with 4 samples.

Results

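To describe how genes of the primitive streak and of its mesoderm and endoderm derivatives were expressed in haploid embryonic stem cells (haESCs) under a chemical treatment, 10 transcriptional regulators were followed in the RNA sequencing (RNA-seq) data. These were T, Mixl1, Eomes, Gsc, Mesp1, Evx1, Tbx6, Foxa2, Lhx1 and Hhex, chosen by symbol for their known roles and found as 10 of the 23235 gene symbols in the files. The choice was made with earlier results of these data known. The study that reported these data had already named T and Mixl1 among genes lower under RDF. Libraries came from the androgenetic line HG165, which carries a single paternal genome and is 1 line derived from C57BL/6 mice. Cells were treated with the solvent DMSO or with RDF, a mixture of Repsox (which inhibits TGF-β signalling), DMH1 (which inhibits BMP signalling) and Forskolin (which activates adenylate cyclase), with 2 samples per condition and 4 in all. Both conditions share the cell line, and the ES medium of the series holds serum and leukemia inhibitory factor. The sources used here give neither the doses and duration of RDF in the sequenced samples, nor whether their haploid cells were sorted, nor whether the 2 samples of a condition were separate cultures, so p-values measure only the spread between these samples.

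The primitive streak is the site of the gastrulating embryo where epiblast cells leave the epithelium to form mesoderm and definitive endoderm. Nodal and Wnt signals induce the T-box genes T (Brachyury) and Eomes and the homeobox gene Mixl1 there. T marks the whole streak and later the notochord, Mesp1 and Tbx6 act in nascent and presomitic mesoderm, and Gsc, Foxa2, Lhx1 and Hhex mark the anterior streak, its organizer and the endoderm that leaves it. Mouse ES cells grown with serum are known to contain few cells that express such genes, and several of the 10 are also used outside the streak, Eomes in trophoblast and Foxa2, Hhex and Lhx1 in visceral endoderm.

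The promoter stretches of 4 of the genes are shown because these genes cover the range of what was measured: T had the only change that passed the test, Mesp1 held the most motif matches in 1 window, Eomes was the most highly expressed, and Foxa2 had the largest ratio of RDF to DMSO. They are the 250 bases before the annotated start, from RefSeq on build GRCm38.p6, written 5′ to 3′ on the strand of the gene, with letters of the searched motifs in capitals. T lies at chr17:8434173-8434422 (plus strand), Mesp1 at chr7:79793591-79793840 (minus strand), Eomes at chr9:118477939-118478188 (plus strand) and Foxa2, for the most upstream of its 3 starts, at chr2:148046970-148047219 (minus strand).
T: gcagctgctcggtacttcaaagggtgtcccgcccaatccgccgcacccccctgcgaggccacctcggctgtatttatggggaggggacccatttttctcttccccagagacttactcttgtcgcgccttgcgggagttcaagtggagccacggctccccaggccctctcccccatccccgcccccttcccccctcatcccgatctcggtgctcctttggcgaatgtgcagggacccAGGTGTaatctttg
Mesp1: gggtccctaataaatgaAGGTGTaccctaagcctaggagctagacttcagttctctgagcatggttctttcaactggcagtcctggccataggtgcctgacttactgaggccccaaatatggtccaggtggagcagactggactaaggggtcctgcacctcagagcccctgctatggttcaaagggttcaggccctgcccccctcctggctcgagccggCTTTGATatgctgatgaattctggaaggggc
Eomes: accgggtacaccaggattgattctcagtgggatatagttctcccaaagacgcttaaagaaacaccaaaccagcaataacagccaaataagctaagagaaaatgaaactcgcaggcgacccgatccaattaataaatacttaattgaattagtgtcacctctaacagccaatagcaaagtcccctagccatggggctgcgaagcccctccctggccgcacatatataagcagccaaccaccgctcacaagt
Foxa2: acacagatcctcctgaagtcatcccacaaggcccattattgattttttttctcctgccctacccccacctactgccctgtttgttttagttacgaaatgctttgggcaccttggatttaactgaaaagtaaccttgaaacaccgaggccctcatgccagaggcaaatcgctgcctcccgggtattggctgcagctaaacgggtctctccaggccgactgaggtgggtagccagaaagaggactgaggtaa

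The search covered windows of 300 bases, which run 50 bases past the start, on both strands, for the 9 genes with an entry (11 windows, 3 of them of Foxa2). Mixl1 had no entry. The T-box core AGGTGT was found at position 237 of the T window, counted from 1 at its 5′ end, at 2 positions of the Mesp1 window and at 1 of the Evx1 window, and 13.7% of all 32851 promoter windows hold it. The TCF/LEF letters ATCAAAG were found in Mesp1 and in 1 window of Foxa2, against 3.73% of all windows. The GC-rich SMAD letters GGCGCC were found in 1 window of Foxa2 and in that of Hhex, against 11.9%. The letters TGACG, which are the core of the cAMP response element and lie within its full form, were found in Gsc, Lhx1 and 1 window of Foxa2, against 20.8%. None of the 11 windows held the FOXH1 letters AATNCACA (3.60% of all windows), the SMAD palindrome GTCTAGAC (0.213%) or the full cAMP response element TGACGTCA (1.79%). One of the matches in Mesp1 and the TGACG of Foxa2 lie past the start, beyond the stretches shown. Matches are descriptions of these letters and not of bound sites.

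All 10 listed genes of ES cell identity were expressed in both conditions. The lowest was Tbx3, with means of 20.7 FPKM under DMSO and 21.0 FPKM under RDF. Pou5f1 (Oct4) was at 1254 ± 43.9 FPKM under DMSO and 985 ± 64.7 FPKM under RDF (SD, n = 2 each). By the test described below, 3 of the 10, Pou5f1 among them, were called lower in RDF and 4 higher. FPKM are fragments scaled to the length of the transcript and the depth of the library. The depth, estimated from the steps between the lowest values, was between 9520000 and 12430000 fragments per sample. Fragments given for single genes are therefore approximate. Of the 23235 symbols, 15273 reached an average of 0.1 FPKM in the 4 samples and were tested with limma on log2(FPKM + 1) with Benjamini-Hochberg adjustment. At an adjusted p under 0.05, limma called 931 of them lower and 1435 higher in RDF, so that 60.7% of the calls were higher. This share was 52.1% with median-ratio scaling (1110 lower, 1209 higher) and 53.7% with quantile normalization (995 lower, 1152 higher).

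T was the only one of the 10 genes that changed by this test, and it fell. Of the 10 genes, 9 passed the minimum of 0.1 FPKM, of which 1 was called lower and 0 higher, against 6.10% and 9.40% of all genes tested. At an unadjusted p under 0.05 there were 2 of 9, T lower and Foxa2 higher, against 13.5% of all genes tested in the lower and 19.2% in the higher direction. Both RDF values lay below both DMSO values for 3 genes (T, Mixl1 and Tbx6) and above them for 4 (Eomes, Gsc, Foxa2 and Hhex), against 27.0% and 34.3% of all genes tested, and they overlapped for Mesp1, Evx1 and Lhx1. The median log2 fold change of the 9 genes was 0.04, and that of all genes tested was 0.02. The summed level of the 10 genes was 10.9 and 9.93 FPKM with DMSO, against 11.1 and 10.8 FPKM with RDF. This sum adds genes that were lower and genes that were higher in RDF. Most of it was Eomes and Hhex, with means of 3.45 and 3.07 FPKM in DMSO and 4.01 and 3.67 FPKM in RDF. Without T and Mixl1, left out after their values were seen, it was 9.02 and 8.31 FPKM with DMSO, against 10.7 and 10.2 FPKM with RDF. Tbx6, whose RDF values were also below both DMSO values, was kept. Leaving out genes because they fell raises RDF against DMSO by choice, so no conclusion is drawn from this second sum.

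**Figure D1:**
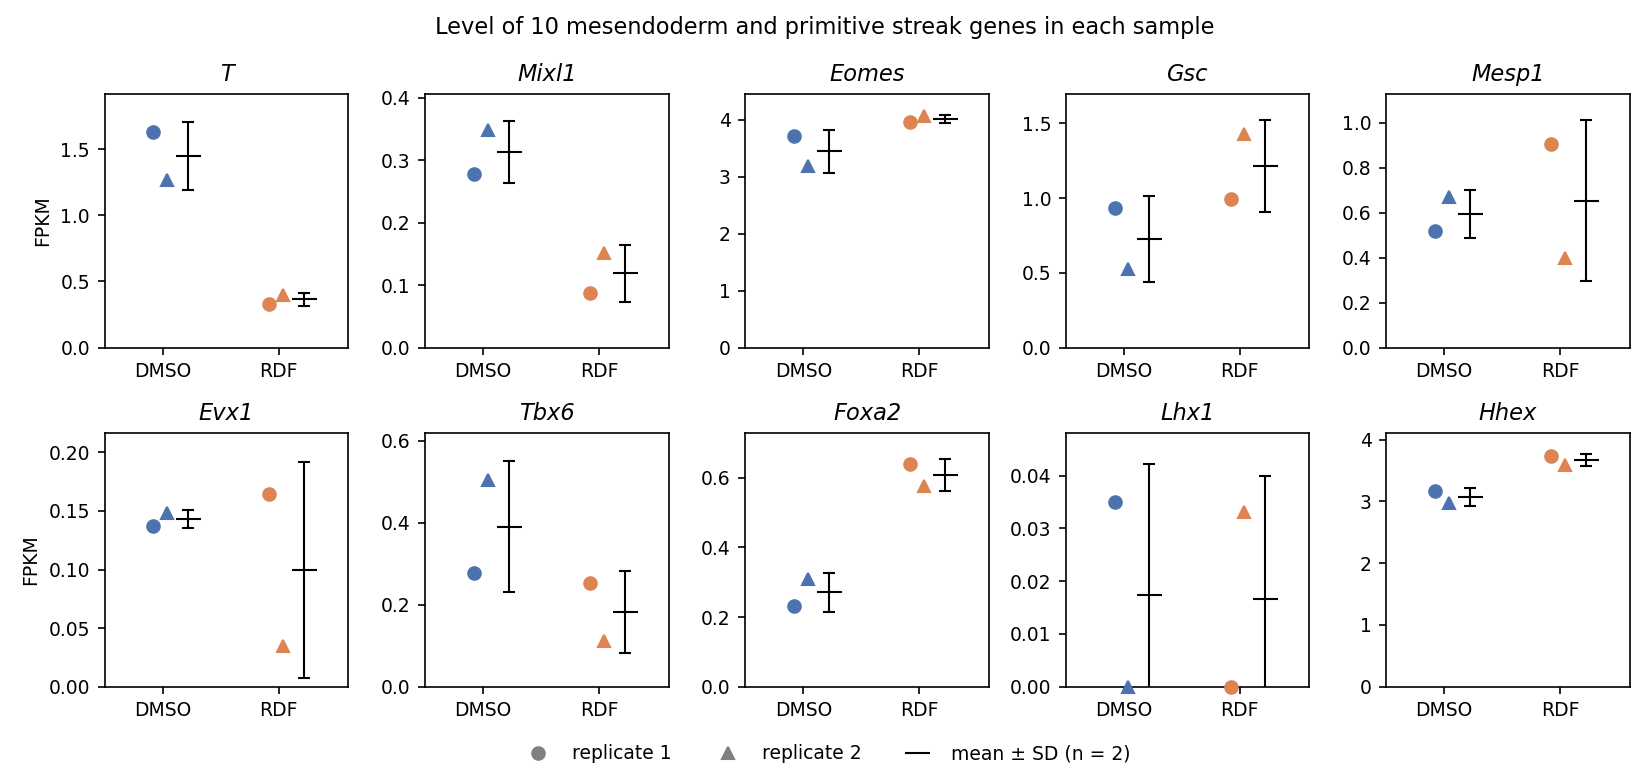
Level in FPKM (vertical axes, each from 0) of the 10 genes in DMSO-treated and RDF-treated haESCs, with circles for replicate 1, triangles for replicate 2 and bars for the mean ± SD (n = 2). The RDF points of T lie at 0.333 and 0.401 FPKM, under both DMSO points, whereas those of Foxa2 lie at 0.641 and 0.576 FPKM, above both DMSO points.

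The 10 genes were low in these cells. In DMSO, Eomes had the highest mean level (3.45 FPKM), followed by Hhex (3.07 FPKM) and T (1.45 FPKM). Gsc (0.729 FPKM), Mesp1 (0.593 FPKM) and Tbx6 (0.391 FPKM) came next, then Mixl1 (0.313 FPKM), Foxa2 (0.271 FPKM), Evx1 (0.143 FPKM) and Lhx1 (0.0175 FPKM). The ranges of the 2 DMSO samples overlapped between Gsc and Mesp1, between Tbx6 and Mixl1, and between Mixl1 and Foxa2, so these neighbours in the order did not differ beyond their spread. In RDF, T was the sixth in this order, after Eomes, Hhex, Gsc, Mesp1 and Foxa2, and its range overlapped that of Mesp1 but not that of Foxa2. Averaged over all 4 samples, only Eomes and Hhex reached 1 FPKM, near the middle of the 18012 symbols above 0, at percentiles 51.4 and 49.8. T stood at percentile 33.9 and Lhx1 at percentile 4.13.

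T encodes the T-box factor Brachyury and lies on chromosome 17 from 8627288 to 8635361 of build NCBIM37 (mm9), on the plus strand. Its level was 1.63 and 1.27 FPKM with DMSO, against 0.333 and 0.401 FPKM with RDF. Both RDF samples were low, and the conditions did not overlap. By the estimated depth these levels rest on 31.8 and 28.9 fragments with DMSO, against 8.46 and 9.47 with RDF. The mean was 1.45 ± 0.258 FPKM with DMSO, against 0.367 ± 0.0486 FPKM with RDF (SD, n = 2 per condition), a ratio of DMSO to RDF of 3.95. On the log2(FPKM + 1) scale, which understates the change of low genes, T had a log2 fold change of -0.84 (standard error 0.116, 95% interval from -1.12 to -0.55, adjusted p = 0.00967 from limma), and 149 of the 15273 genes tested fell further. With a pseudocount of 0.1 FPKM in place of 1 it was -1.73 (adjusted p = 0.0104 from limma). The call was lost when either RDF sample was left out, with adjusted p = 0.0839 without replicate 1 and 0.0920 without replicate 2 from limma, while it held without DMSO replicate 1 (0.0434) or 2 (0.0298). In bulk samples, fewer cells that express T and less T RNA per cell cannot be told apart.

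Mixl1, a homeobox gene of the early streak, lies on chromosome 1 from 182623174 to 182627165 on the minus strand. It had 0.278 and 0.347 FPKM with DMSO, against 0.0870 and 0.151 FPKM with RDF. The conditions did not overlap and the mean in RDF was lower, as for T, but Mixl1 had only 6.06 and 8.89 estimated fragments with DMSO, against 2.48 and 3.99 with RDF. The log2 fold change was -0.23 (standard error 0.0952, 95% interval from -0.46 to 0.0028, adjusted p = 0.157 from limma), which did not pass the threshold. The ratio of the DMSO mean to the RDF mean was 2.63. With a pseudocount of 0.1 FPKM the log2 fold change was -0.92 (adjusted p = 0.153 from limma). The floor set by 3 fragments lies between 0.105 and 0.137 FPKM for this gene, so that the value of RDF replicate 1 was under it.

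Eomes, the T-box gene that acts upstream of Mesp1 and of definitive endoderm in the embryo, lies on chromosome 9 from 118387330 to 118395250 on the plus strand. Its level was 3.72 and 3.19 FPKM with DMSO, against 3.96 and 4.06 FPKM with RDF, and it had between 126 and 175 estimated fragments per sample. Both RDF values were above both DMSO values, by little. The log2 fold change was 0.17 (standard error 0.104, 95% interval from -0.08 to 0.43, adjusted p = 0.302 from limma), and this interval does not reach the fall measured for T. Eomes is also a gene of the trophoblast. Of 11 trophoblast markers, 10 were tested. Of these, 4 were called higher (Gata3, Tfap2c, Hand1 and Ascl2) and 0 lower, against 9.40% and 6.10% of all genes tested. At an unadjusted p under 0.05 from limma, 6 were higher and 0 lower, against 19.2% and 13.5%. Cdx2, Elf5, Krt7, Krt8, Krt18 and Plac1 were not called, and Tpbpa was at 0 FPKM in all 4 samples. The summed level was 133 to 139 FPKM in DMSO and 175 to 177 FPKM in RDF. Most of it was Krt18, Krt8 and Tfap2c, with means of 46.4, 36.3 and 26.15 FPKM in DMSO and 51.5, 34.6 and 49.5 FPKM in RDF. The part of such cells in the level of Eomes was not tested.

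Evx1, a homeobox gene of the posterior streak, lies on chromosome 6 from 52263492 to 52268372 on the plus strand. It had 0.137 and 0.148 FPKM with DMSO, against 0.165 and 0.0344 FPKM with RDF. The DMSO samples were alike, and the RDF samples stood on either side of them, 4.79-fold apart. The gene had between 1.14 and 5.89 estimated fragments per sample, and the difference did not pass the test (log2 fold change -0.06, standard error 0.101, 95% interval from -0.31 to 0.19, adjusted p = 0.730 from limma). The gene overlaps 5730457N03Rik on the opposite strand, which had 0.0344 and 0 FPKM with DMSO, against 0.0281 and 0.0307 FPKM with RDF. Whether the authors counted by strand is not stated, so reads of the pair may not have been separated.

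The nascent mesoderm genes Mesp1 and Tbx6 gave no change that passed the test. Mesp1, a bHLH factor of the first cardiac and cranial mesoderm, lies on chromosome 7 from 86937127 to 86938674 on the minus strand. It had 0.517 and 0.669 FPKM with DMSO, against 0.905 and 0.399 FPKM with RDF, so that the highest and the lowest value both came from RDF. Mesp1 had a log2 fold change of 0.04 (standard error 0.164, 95% interval from -0.37 to 0.44, adjusted p = 0.902 from limma). Tbx6, a T-box factor of presomitic mesoderm, lies on the same chromosome from 133924997 to 133929074 on the plus strand. Its values were 0.278 and 0.504 FPKM with DMSO, against 0.254 and 0.112 FPKM with RDF. The RDF values were lower, but RDF replicate 1 was near DMSO replicate 1. The log2 fold change of Tbx6 was -0.23 (standard error 0.124, 95% interval from -0.53 to 0.07, adjusted p = 0.254 from limma), with 2.23 to 9.71 estimated fragments per sample. For Tbx6 the ratio of the DMSO mean to the RDF mean was 2.14. With a pseudocount of 0.1 FPKM its log2 fold change was -0.80 (adjusted p = 0.257 from limma).

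Foxa2, the forkhead factor of the node, notochord and endoderm, lies on chromosome 2 from 147868613 to 147872705 on the minus strand. Its values were 0.232 and 0.310 FPKM with DMSO, against 0.641 and 0.576 FPKM with RDF. Both RDF samples were high and close to each other, and the conditions did not overlap. The ratio of the RDF mean to the DMSO mean was 2.25, from 4.69 and 7.36 estimated fragments in DMSO and 17.0 and 14.1 in RDF. The log2 fold change was 0.34 (standard error 0.0972, 95% interval from 0.10 to 0.58), with an adjusted p = 0.0677 from limma, between 0.0515 and 0.228 over the alternatives, so that it did not pass the threshold in any of them.

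Gsc, a homeobox gene of the organizer, lies on chromosome 12 from 105709419 to 105711537 on the minus strand. Its values were 0.931 and 0.526 FPKM with DMSO, against 0.996 and 1.43 FPKM with RDF. The lower RDF value was just above the higher DMSO value, and the DMSO samples were 1.77-fold apart. Gsc had a log2 fold change of 0.36 (standard error 0.160, 95% interval from -0.03 to 0.75, adjusted p = 0.183 from limma). The ratio of its RDF mean to its DMSO mean was 1.66.

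Hhex, a homeobox gene of anterior endoderm and of the blood and liver lineages, lies on chromosome 19 from 37507377 to 37515218 on the plus strand. Its level was 3.17 and 2.97 FPKM with DMSO, against 3.74 and 3.60 FPKM with RDF, and it had between 112 and 173 estimated fragments per sample. The replicates were close and the conditions did not overlap. The ratio of RDF to DMSO was 1.19, and the log2 fold change was 0.20 (standard error 0.0960, 95% interval from -0.04 to 0.43, adjusted p = 0.216 from limma).

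Lhx1, a LIM homeobox gene of the anterior streak, lies on chromosome 11 from 84331479 to 84338923 on the minus strand. It was at 0.0349 FPKM in DMSO replicate 1 and 0.0331 FPKM in RDF replicate 2, which correspond to 1.34 and 1.54 estimated fragments, and at 0 in the other samples. It was under the minimum and was not tested. A count of 0 allows up to 0.0666 FPKM in DMSO replicate 2 and 0.0598 FPKM in RDF replicate 1, by a floor of 3 fragments that covers counting error only.

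Foxa2, Hhex and Lhx1 are shared with primitive and visceral endoderm. Of 15 markers of primitive endoderm, 13 were tested. By limma 0 were called higher and 2 lower (Lamb1 and Sparc), against 9.40% and 6.10% of all genes tested. At an unadjusted p under 0.05 from limma there were 3 higher and 3 lower, against 19.2% and 13.5%. The summed level was 391 to 406 FPKM in DMSO and 338 to 342 FPKM in RDF, and Ttr was at 0 in all samples. Most of this sum was Sparc, with a mean of 337 FPKM in DMSO and 281 FPKM in RDF, whereas the median log2 fold change of the 13 genes was 0.21, with both RDF values above both DMSO values for 5 of them and below for 4. Gata6, which specifies this lineage, had a mean of 2.14 FPKM in DMSO and 4.27 FPKM in RDF (log2 fold change 0.78, adjusted p = 0.0565 from limma). It did not pass the threshold, and its DMSO samples were far apart, at 2.83 and 1.45 FPKM, against 4.355 and 4.19 FPKM in RDF. The log2 fold changes of Gata4 and Sox17 were 0.21 and -0.07 (adjusted p = 0.178 and 0.764 from limma). The part of such cells in the levels of these genes was not tested. The other marker lists moved in both directions. Of all genes tested, 6.10% were called lower and 9.40% higher. Of 13 fibroblast genes, 3 were called lower and 2 higher (43.7 to 45.7 FPKM in sum under DMSO, 39.0 to 41.6 FPKM under RDF), of 8 tested neuroectoderm genes 1 lower and 1 higher (55.9 to 62.5 and 32.6 to 34.6 FPKM), and of 10 genes of ES cell identity 3 lower and 4 higher (7360 to 7400 and 4364 to 4859 FPKM). Single genes carried most of the last 2 sums, Tubb3 with a mean of 51.0 FPKM in DMSO and 25.4 FPKM in RDF and Dppa5a with 5516 and 3035 FPKM, and the median log2 fold changes of these lists were 0.02 and 0.11. No defining marker of these 3 lists was at 0 in all samples, and their part in the results was not tested.

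**Figure D2:**
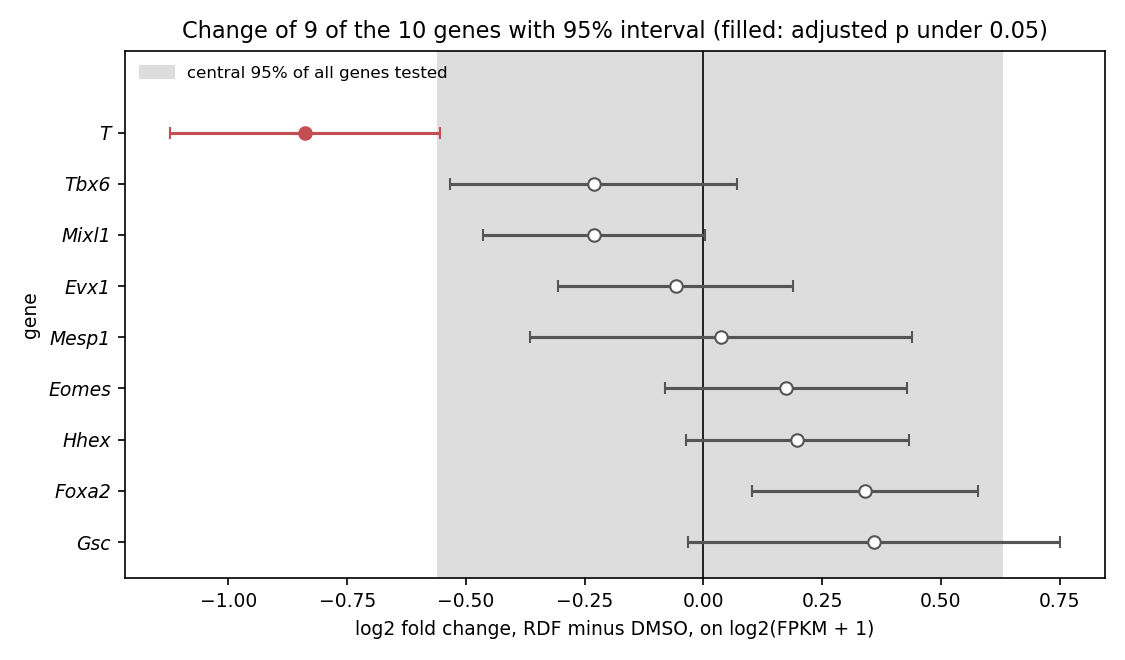
Log2 fold change of RDF against DMSO on log2(FPKM + 1) (horizontal axis) for the 9 tested genes (vertical axis), with limma's 95% interval. The grey band spans the central 95% of all genes tested, from -0.56 to 0.63, and the point of T at -0.84 lies outside it while the other points lie inside.

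On the log2(FPKM + 1) scale, the 95% interval of T reached up to -0.55. It did not overlap that of any of the other 8 tested genes, the lowest of which reached -0.53 for Tbx6. This scale understates the change of low genes, and Mixl1 and Tbx6 were lower than T. With a pseudocount of 0.1 FPKM, the log2 fold change of T was -1.73 (standard error 0.25). It was then -0.92 (standard error 0.38) for Mixl1 and -0.80 (standard error 0.43) for Tbx6, so the separation depends on the scale. The difference in change between genes was not itself tested. With 2 samples per condition the smallest p that an exact two-sided permutation test can give is 0.333, and the calls of single genes depend on the spread that limma borrows from all genes.

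**Figure D3:**
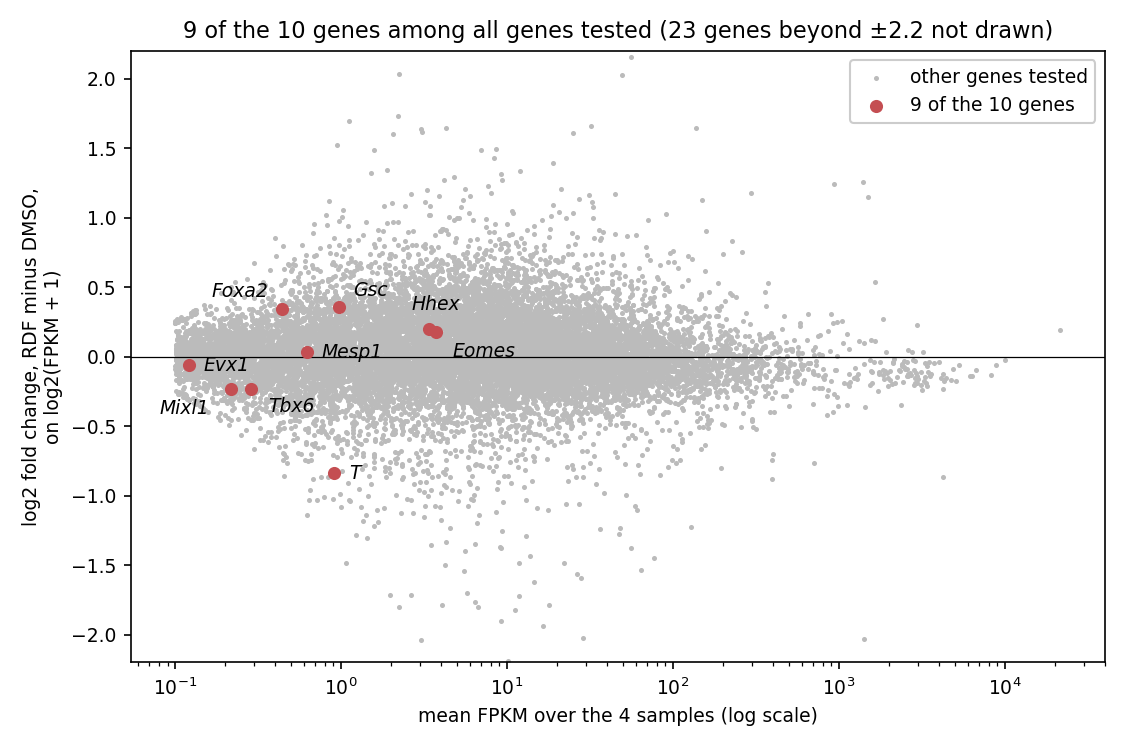
Log2 fold change on log2(FPKM + 1) (vertical axis) against the mean level in FPKM over the 4 samples (horizontal axis, log scale) for the 15273 genes tested, in grey, and for 9 of the 10 genes, in red; 23 genes beyond 2.2 in size are not drawn. T lies at -0.84 and a mean of 0.909 FPKM, and the other 8 lie between -0.23 and 0.36.

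The closest relatives of the 10 genes were examined as well, in lists written after the values of the 10 were seen. Of 16 genes of the T-box family, 13 were tested, and T was the only one called, against 6.10% lower and 9.40% higher of all genes tested. Tbx3, an ES cell transcription factor, was the most highly expressed of them, with 20.3 and 21.1 FPKM under DMSO, against 20.8 and 21.3 FPKM under RDF. Tbx3 had a log2 fold change of 0.02, with a standard error of 0.0597 (adjusted p = 0.834 from limma). Of 8 paralogs nearest to the 10 genes, 6 were tested and 0 were called by limma. At an unadjusted p under 0.05 from limma there were 0 lower and 1 higher, against 13.5% and 19.2% of all genes tested. Mesp2, the neighbour and paralog of Mesp1, had 2.32 and 1.58 FPKM under DMSO, against 2.37 and 2.01 FPKM under RDF, a higher level than Mesp1 in every sample. Foxa1 and Foxa3 are the paralogs of Foxa2 in the forkhead family. Foxa1 had 0.200 and 0.341 FPKM under DMSO, against 0.354 and 0.504 FPKM under RDF (log2 fold change 0.17, adjusted p = 0.338 from limma), and Foxa3 had 0.553 and 0.437 FPKM under DMSO, against 0.264 and 0.521 FPKM under RDF (log2 fold change -0.11, adjusted p = 0.593 from limma).

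Other genes of the streak and mesoderm were called in both directions. Of 22 listed, 18 were tested, and 1 was called lower and 2 higher, against 6.10% and 9.40% of all genes tested. The median log2 fold change of the 18 was 0.03. At an unadjusted p under 0.05 from limma, 5 were lower and 4 higher, against 13.5% and 19.2% of all genes tested. Both RDF values lay below both DMSO values for 7 of the 18 and above them for 4, against 27.0% and 34.3% of all genes tested. Dll3, a Notch ligand of presomitic mesoderm, fell from a mean of 2.92 ± 0.190 FPKM to one of 1.76 ± 0.136 FPKM (SD, n = 2 each; log2 fold change -0.51, adjusted p = 0.0287 from limma). Hand1, a bHLH factor of extraembryonic mesoderm and trophoblast, rose from 3.65 ± 0.319 FPKM to 6.55 ± 0.605 FPKM (log2 fold change 0.70, adjusted p = 0.0122 from limma). Cdx4, a homeobox gene of the posterior streak, rose from 0.113 ± 0.0690 FPKM to 0.585 ± 0.0348 FPKM (log2 fold change 0.51, adjusted p = 0.0239 from limma), in the opposite direction to T. The DMSO values of Cdx4 were low and apart, at 0.0639 and 0.161 FPKM, and its fragments were not estimated. Of 16 genes of endoderm and node, 12 were tested, with a median log2 fold change of -0.09. At an unadjusted p under 0.05 from limma, 4 of the 12 were lower and 2 higher, against 13.5% and 19.2% of all genes tested. After adjustment 1 was called lower and 0 higher, against 6.10% and 9.40%. The one called was Otx2, an anterior and epiblast homeobox gene, with 5.03 and 4.51 FPKM under DMSO, against 2.27 and 1.54 FPKM under RDF (log2 fold change -1.0, adjusted p = 0.0112 from limma). Cer1 and Noto, which mark anterior endoderm and the node, were at 0 FPKM in all 4 samples.

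The signals that induce the streak and their feedback inhibitors, taken as 1 list, changed in both directions. Of 19 ligands, receptors, cofactors and feedback inhibitors listed, 18 were tested. Of these, 4 were called lower and 6 higher, against 6.10% and 9.40% of all genes tested. The median log2 fold change of the 18 was 0.13. The largest falls were those of the Nodal feedback inhibitors Lefty2 and Lefty1, at -5.77 and -2.77 on the log2 scale (adjusted p = 2.08e-06 and 0.000523 from limma), and of the Nodal co-receptor Tdgf1, from 499 ± 15.1 FPKM to 307 ± 21.1 FPKM (SD, n = 2 each; log2 fold change -0.70, adjusted p = 0.00413 from limma). Nodal itself had a mean of 9.87 FPKM in DMSO and 9.71 FPKM in RDF (log2 fold change -0.02, adjusted p = 0.866 from limma). The largest rises were those of Acvr1b, a Nodal and activin receptor, Bmp4, a ligand of the posterior streak, and Bmpr1a, its receptor, at 0.55, 0.54 and 0.53 on the log2 scale (adjusted p = 0.0104, 0.0180 and 0.0109 from limma). Wnt3, the Wnt ligand of the streak, had a mean of at most 0.0402 FPKM in either condition and was not tested.

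**Figure D4:**
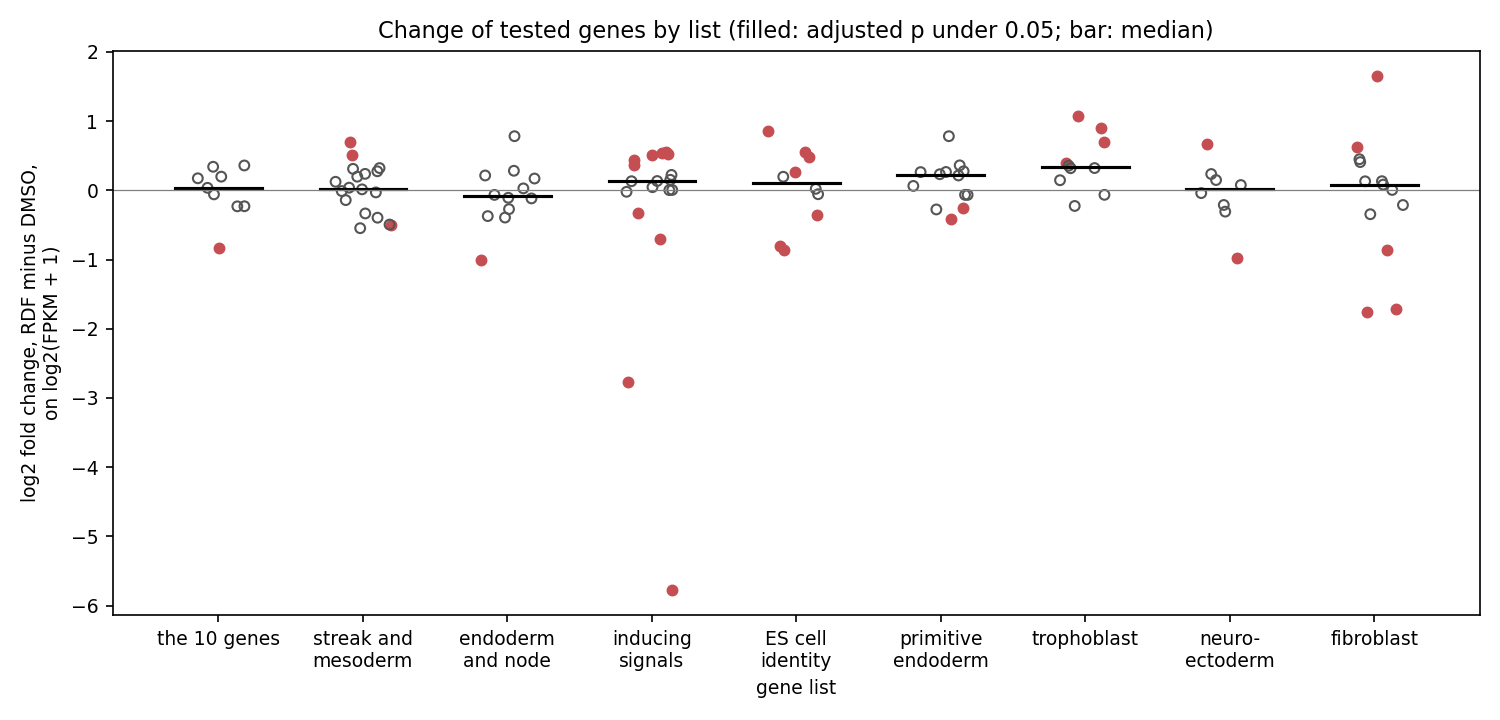
Log2 fold change of RDF against DMSO on log2(FPKM + 1) (vertical axis) of each tested gene, by list (horizontal axis), with filled points at an adjusted p under 0.05 from limma and bars at the median of each list. The 10 genes have 1 filled point, T, among 9 tested. The list of inducing signals, which includes feedback inhibitors, has 10 among 18 tested, with the inhibitor Lefty2 at -5.77. Of all genes tested, 6.10% were called lower and 9.40% higher.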

How the data were processed

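RNA-seq was done by the authors on total RNA of HG165 haESCs, 2 samples treated with DMSO and 2 with RDF, with a stranded mRNA library kit. Per the labels and the methods of the study, reads were mapped with TopHat2 2.0.14 and Bowtie2 2.1.0, and FPKM were estimated with Cufflinks 2.2.1 on the UCSC mm9 annotation. The deposited FPKM values, 1 per gene symbol and sample, are already scaled to depth and transcript length; handling of multi-mapping reads and of strand is not given in the sources used here. Depth was estimated from 1-transcript genes of at least 1500 nucleotides, as the depth at which their low values lay nearest to whole fragments. At that depth between 38.2% and 40.8% of low values lay within 0.1 of a whole fragment. An even spread would give 20% at a depth fixed beforehand. The depth was fitted to these same values, so the shares do not test it. Fragments per gene use the longest transcript of the NCBIM37 annotation (mm9).

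For genes averaging 0.1 FPKM or more, limma 3.58.1 (R 4.3.3; lmFit, eBayes with a trend) was run on log2(FPKM + 1), RDF against DMSO without a block, with Benjamini-Hochberg adjustment over all genes tested and a threshold of 0.05. A minimum of 1 FPKM would leave 2 of the 10 genes. The fit was tested on simulated data. Named genes are the 10, and in each list of pathway genes up to 3 of the largest falls and rises past the threshold; Nodal, Wnt3, Cer1, Noto, Foxa1, Foxa3, Mesp2, Tbx3 and the marker genes were named after their values were seen. The 10 genes and all lists were chosen with earlier results of these data known. Alternatives were another minimum, pseudocount, scaling or variance model, a replicate block, and each sample left out.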

Additional observations from a re-analysis of the deposited data

How the results depend on the processing

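Of the 92 values that the 9 tested genes took under the 11 alternatives, 87 kept their direction and their side of the threshold. Most of the 92 belong to the 8 genes not called in the main fit, for which keeping their side means only that they stayed uncalled. The count also ignores the size of a change, which for Mixl1 was -0.23 in the main fit and -0.92 with a pseudocount of 0.1 FPKM. T was called lower under every alternative that tested it with all 4 samples, at an adjusted p of up to 0.0250 from limma. The exceptions among the other values were Mesp1, which changed sign to -0.03 without DMSO replicate 1 and -0.19 without RDF replicate 1 and lay between -0.19 and 0.26 when any 1 sample was left out, and Evx1, which changed sign to 0.027 without RDF replicate 2 and lay between -0.14 and 0.027. For both genes the RDF values stood on either side of the DMSO values, so the sign depends on which sample is left out. Why the RDF samples differed was not tested. With a minimum of 1 FPKM, 0 of the 10 genes were called lower, since only Eomes and Hhex were then tested. Without a filter on low values, limma called 606 genes lower and 942 higher, with more genes tested. Leaving out 1 sample leaves 1 in its condition, which is assumed to vary like the other condition; the count of genes called lower then lay between 35 and 378 and that of genes called higher between 30 and 505, and of the 10 genes 0 to 1 were called lower and 0 higher. The samples share replicate numbers, but nothing in the sources used here pairs them. The deviations of same-numbered samples had a Pearson r of 0.117 across 15273 genes, and with the replicate block limma called 1024 genes lower and 1512 higher, and T (adjusted p = 0.0133) as the only one of the 10. Mixl1, Evx1, Tbx6 and Lhx1 had fewer than 10 estimated fragments in each sample, which limits the precision of their values.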
